A study of Mus musculus with 3 samples.

Results

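The 43 genes described here encode proteins of the extracellular matrix and the enzymes and inhibitors that crosslink or cut them. They were taken as a list of symbols, and all 43 were found among the 32287 features of 1 count matrix of esophageal cells. The cells, called PC, came from organoids of mice with floxed Trp53 alleles, in which an adenovirus carrying Cre and EGFP deleted the gene. CRISPR/Cas9 knockout of Cdkn2a or Notch1 then gave the lines called PC and PCN, and PC was analysed here. The cells also carried constitutive Cas9 and a transfected barcode library, had been moved from organoids to serum medium, were grown first with and then without the kinase inhibitor Y-27632, and were sorted for red fluorescence before droplet sequencing. The labels give their source as esophageal cancer. Libraries of gene expression, barcodes and scar regions are listed, each with 1 sample, and no source used here says which of them supplied the matrix.

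With 1 sample there was no replicate, no control group and no test. Each value below compares sets of cells within this culture, and every interval covers counting error only. Of 18116 cell barcodes, 14925 had at least 500 genes, at least 1000 unique molecular identifiers (UMIs, counted RNA molecules) and at most 20% mitochondrial UMIs. The median kept cell had 2955 UMIs over 1499 genes. Trp53 was counted at 20.4 counts per 1000000 UMIs (CPM) in mesenchymal-like and 51.3 CPM in epithelial-like cells, and Cdkn2a at 1204 and 549 CPM. Tags from the 3' end outside an edited or deleted stretch do not check a knockout, and cells without the edits were not analysed here.

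The extracellular matrix is the protein mesh around cells. Fibrillar collagens such as types I, III and V form its tensile cables, and their chains are folded with the help of the chaperone encoded by Serpinh1 and crosslinked by lysyl oxidases. Type IV collagen forms the sheet-like basement membrane under an epithelium, which type VII collagen anchors to the connective tissue below. Fibronectin, thrombospondins, tenascin C and periostin carry adhesion signals, matrix metalloproteinases cut the mesh, and TIMP proteins inhibit them. In the esophagus, fibroblasts of the connective tissue are known as the main source of fibrillar collagen, decorin and lumican, and basal epithelial cells as a source of type VII collagen.

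The cells were clustered without the 43 genes, and clusters were named without them, so that their levels did not decide which cells were compared. Clustering gave 10 clusters. Cluster 4, with 1961 cells or 13.1%, was mesenchymal-like, with 8 of 15 mesenchymal markers raised and Grem1, an antagonist of bone morphogenetic proteins, at the head of its leading genes. Another 8 clusters, with 12316 cells or 82.5%, were epithelial-like. Cluster 8, with 648 cells or 4.34%, stayed unnamed, with a median of 1185 UMIs and 10.4% mitochondrial UMIs. The median depth was 3344 UMIs in mesenchymal-like and 2955 in epithelial-like cells.

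Vim, the intermediate filament gene that marks mesenchymal cells, served as a gauge of free RNA and mixed droplets. It stood at 1027 CPM in mesenchymal-like cells and 5.21 CPM in epithelial-like cells, 0.507% of the mesenchymal level. In the other direction Epcam, an epithelial adhesion gene, stood at 81.0 CPM in mesenchymal-like cells, 6.30% of its 1285 CPM in epithelial-like cells. Krt5, a basal keratin, stood at 6.60% and Cdh1, the epithelial cadherin, at 7.57%. These levels were uneven within the class: Epcam stood at 494 CPM in a subcluster of 215 cells described further on, and at 16.9 and 7.30 CPM in the 2 largest subclusters. At least 1 UMI of Epcam, Krt5 or Cdh1 was found in 314 mesenchymal-like cells, 16.0% of them. Vim, Epcam, Krt5 and Cdh1 were also among the markers that named the clusters. Their low levels in the other class are therefore not independent of how the classes were made. As gauges they give a point of comparison and no measured level of free RNA.

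Most of the matrix list belonged to the mesenchymal-like cells. A gene was called higher in one class at a ratio of CPM of at least 2, a higher level of at least 10 CPM and 95% Poisson intervals that did not overlap, and was called specific to a class ("only") at a ratio of at least 20. Of 43 genes, 16 were mesenchymal only and 11 mesenchymal higher, 6 were shared, 1 was epithelial higher, none was epithelial only and 9 stayed below 10 CPM in both classes. Among 14157 genes with at least 20 UMIs, 6.72% were mesenchymal by 2-fold or more, 1.07% by 20-fold or more, and 6.35% were epithelial by 2-fold or more; the counts of 27 and 16 of 43 stand above the first and second of these shares. The median log2 ratio was 3.91 over the 38 listed genes that reached this count, against -0.07 over all genes. It was positive for 35 of the 38, and for 6496 of the 14157 genes. The other 5 listed genes had too few UMIs to enter.

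**Figure D1:**
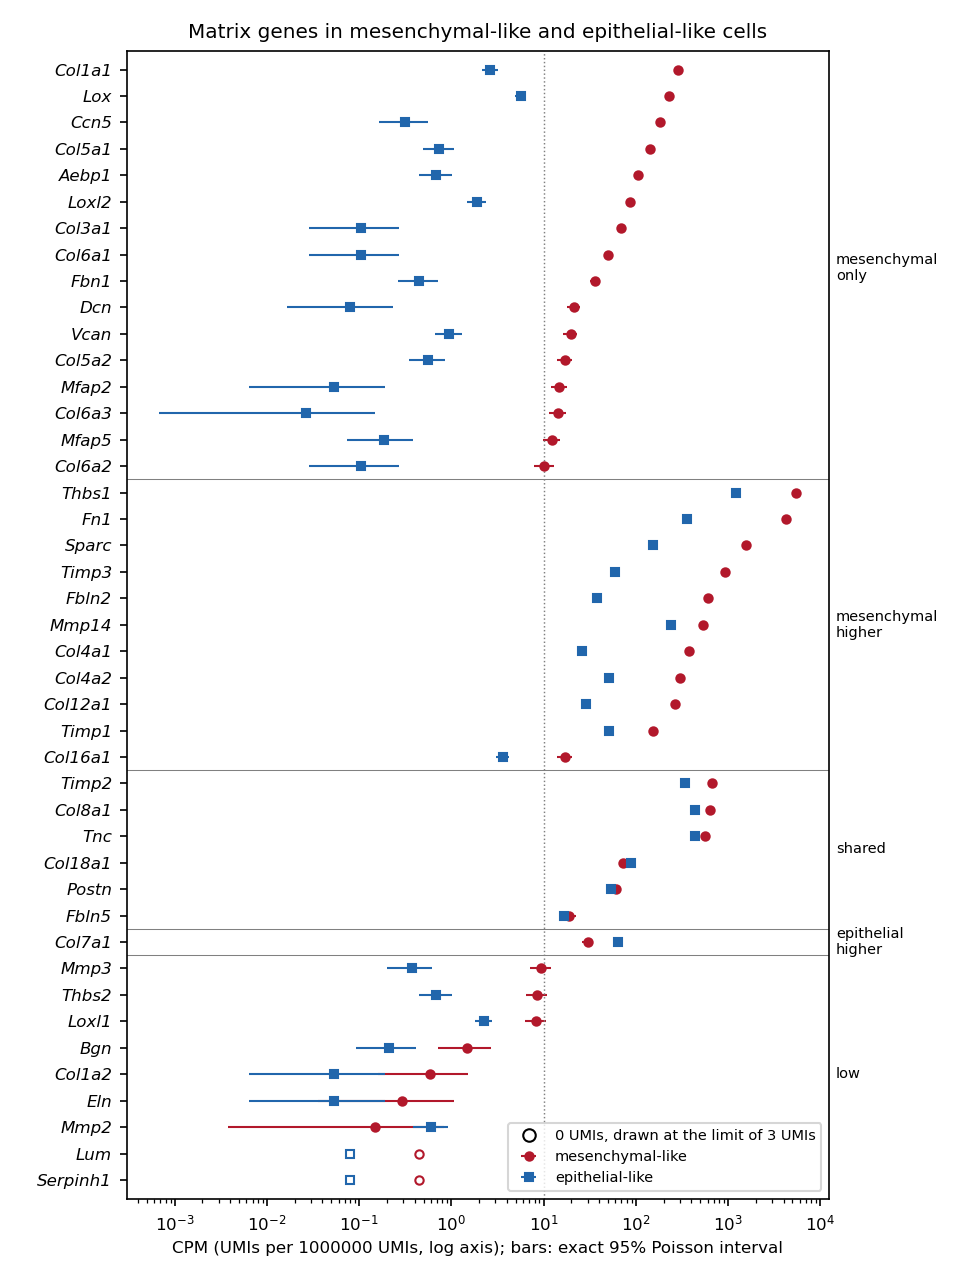
Level of each of the 43 matrix genes in mesenchymal-like (circles) and epithelial-like (squares) cells, as CPM on a log axis with exact 95% Poisson intervals; open symbols mark 0 UMIs, drawn at the level of 3 UMIs, and the dotted line marks 10 CPM. The 16 genes of the top block lie at least 20-fold apart, and the symbols of the 6 shared genes lie within 2-fold of each other.

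Of the 5 listed chains of fibrillar collagens, 4 were mesenchymal only and Col1a2, described further on, was low in both classes. Col1a1, which encodes the alpha1 chain of type I collagen, stood at 287 CPM (274 to 300) in mesenchymal-like and 2.64 CPM (2.15 to 3.22) in epithelial-like cells, a ratio of 109 (88.7 to 134). Col3a1, the only chain of type III collagen, stood at 68.9 CPM (62.8 to 75.4) against 0.106 CPM, which was 467 against 4 UMIs and a ratio of 652 (253 to 2402). Type V collagen, which nucleates type I fibrils, was read through Col5a1 at 141 against 0.740 CPM and Col5a2 at 17.0 against 0.555 CPM. For these 4 genes the intervals of the 2 classes were far apart. Over the processing alternatives the ratio of Col3a1 ran from 649 to 1011, the highest with the mean over cells in place of the sum. The genes differed in how many cells showed them. After each cell had been thinned to 1500 UMIs, Col1a1 was found in 29.5% of mesenchymal-like cells (27.5% to 31.6%), Col5a1 in 20.04% (18.3% to 21.9%) and Col3a1 in 7.63% (6.49% to 8.91%), and before thinning in 48.2%, 36.1% and 12.3%.

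The promoters of these collagens are shown because genes that were mesenchymal together differed in the sequence before their start sites. Upstream windows of 250 bases were read from the RefSeq promoter table on GRCm38.p6, in which 29 of the 43 genes were found. Col3a1 (chr1:45311288-45311537, plus strand) and Col5a1 (chr2:27886175-27886424, plus strand) are printed 5' to 3' up to the base before the start site. Capitals mark matches to the motifs searched, which were the TATA box (TATAAA) on the gene's strand and, on both strands, the CCAAT box, the GC box (GGGCGG), the E2 box (CACCTG), the AP-1 site (TGANTCA) and the TEAD site (GGAATG).
Col3a1: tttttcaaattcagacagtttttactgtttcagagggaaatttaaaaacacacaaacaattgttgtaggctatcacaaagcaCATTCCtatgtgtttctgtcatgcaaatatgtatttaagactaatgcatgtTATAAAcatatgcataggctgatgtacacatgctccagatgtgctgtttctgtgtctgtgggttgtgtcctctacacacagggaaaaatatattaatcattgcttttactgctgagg
Col5a1: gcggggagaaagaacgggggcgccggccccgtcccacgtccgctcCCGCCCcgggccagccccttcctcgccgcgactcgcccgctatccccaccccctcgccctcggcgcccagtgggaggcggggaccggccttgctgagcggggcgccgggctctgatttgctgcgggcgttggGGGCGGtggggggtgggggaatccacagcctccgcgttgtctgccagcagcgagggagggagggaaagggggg
The Col3a1 window had 35.2% G or C and 0 CpG pairs, with a TATA box match 117 bases before the start and a TEAD site match, read on the other strand, at 168 bases. The Col5a1 window had 76.4% G or C and 28 CpG pairs, with GC box matches at 205 and 73 bases. The median over all 32851 promoters of the table was 6 CpG pairs. Of those promoters 7.59% held the TATA box, 32.7% the GC box and 12.6% the TEAD site. Among the 9 mesenchymal-only genes with a promoter in the table, 1 held the TATA box, 5 the GC box, 2 the TEAD site and 0 the E2 box, which 17.2% of all promoters held. The CCAAT box, in 33.8% of all promoters, was held by 1 of these 9 and by 5 of the 8 mesenchymal-higher genes, and the AP-1 site, in 6.75% of all, by 1 and 0. A match describes letters in the window and shows no binding.

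Type VI collagen, a beaded filament collagen around cells, was mesenchymal only in all 3 of its listed chains. Col6a1 stood at 50.2 CPM (45.0 to 55.8) in mesenchymal-like and 0.106 CPM in epithelial-like cells, a ratio of 474 (184 to 1751). Col6a3 stood at 14.2 against 0.026 CPM, from 96 against 1 UMI, with a ratio interval of 93.9 to 21382. Col6a2 was just past the minimum, at 10.2 against 0.106 CPM, from 69 and 4 UMIs. Col6a1 and Col6a2 lie near each other on chromosome 10 on the same strand (76708792 to 76726168 and 76595762 to 76623630, GRCm38), and Col6a3 lies on chromosome 1.

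Lox, Loxl2, Aebp1 and Ccn5, whose products crosslink, bind or surround fibrils, were mesenchymal only as well. Lox, the lysyl oxidase that crosslinks collagen and elastin, stood at 227 CPM (216 to 239) against 5.63 CPM (4.90 to 6.44), a ratio of 40.4 (34.9 to 46.8). Its relative Loxl2 stood at 86.5 against 1.88 CPM, a ratio of 46.1, and Aebp1, which binds fibrillar collagen, at 107 against 0.687 CPM. Ccn5, a matricellular protein of the CCN family, stood at 181 CPM (171 to 191) against 0.317 CPM, from 1227 and 12 UMIs, a ratio of 571 (326 to 1108). Over the processing alternatives the ratio of Ccn5 ran from 483 to 1042. The highest came without the cells that had UMIs of Vim and of Epcam, Krt5 or Cdh1. That filter also takes out epithelial-like cells with Vim. These 4 genes were found in 11.5% to 27.6% of thinned mesenchymal-like cells and in at most 0.739% of thinned epithelial-like cells, and before thinning in 24.3% to 46.7% and at most 1.63%. Vim itself was found in 0.686% of epithelial-like cells after and 1.39% before thinning.

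Microfibril and proteoglycan genes completed the class at lower levels. Fbn1, the backbone of elastic microfibrils, stood at 36.3 against 0.449 CPM, a ratio of 80.8 (49.4 to 141). The microfibril-associated genes Mfap2 and Mfap5 stood at 14.8 and 12.2 CPM against 0.053 and 0.185 CPM. Dcn, the proteoglycan decorin that coats collagen fibrils, stood at 21.2 against 0.079 CPM, from 144 and 3 UMIs, a ratio of 268 (89.9 to 1314). Vcan, the large proteoglycan versican, stood at 19.6 against 0.952 CPM and just inside the limit of 20, with a ratio of 20.6 (14.2 to 30.7). Just outside it lay Fbln2, with 15.9 (15.01 to 16.9).

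The traces of these genes in epithelial-like cells were set against Vim. Of the 16, 6 (Col3a1, Col6a1, Col6a3, Dcn, Mfap2 and Ccn5) were at or below the 0.507% of Vim, between 0.153% and 0.373% of their mesenchymal level, and above the 0.0959% of Grem1, another mesenchymal marker. They rest on 1 (Col6a3) to 12 (Ccn5) epithelial UMIs, and that of Grem1 on 13, so their order against Grem1 is not resolved. Whether these traces were free RNA was not tested. The other 10 lay between 0.525% for Col5a1 and 4.85% for Vcan. The counts of some genes, among them Col6a3 (1 epithelial UMI) and Col5a1 (28), are too few to place them above or below Vim. In the same measure all 11 mesenchymal-higher genes lay above Vim, at 6.27% to 44.8%. Vim and Grem1 were also markers that named the clusters, so a place above or below them is not independent of the naming. For Col1a1 the traces were spread thinly, between 0.80 and 3.78 CPM over the 6 epithelial-like clusters of at least 500 cells.

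The mesenchymal-higher genes were read in both classes. Fn1, fibronectin, stood at 4293 CPM (4244 to 4342) in mesenchymal-like and 363 CPM (357 to 369) in epithelial-like cells, a ratio of 11.8 (11.6 to 12.1). Fn1 was found in 97.1% (96.2% to 97.8%) of thinned mesenchymal-like and 36.3% (35.4% to 37.2%) of thinned epithelial-like cells, and in 99.3% and 52.3% before thinning. Thbs1, thrombospondin 1, a regulator of adhesion and of TGF-beta activation, stood at 5524 CPM (5468 to 5580) against 1218 CPM (1207 to 1229), a ratio of 4.54 (4.48 to 4.60), and was found in 98.0% (97.3% to 98.6%) and 70.6% (69.7% to 71.4%) of thinned cells. Sparc, a collagen-binding glycoprotein also called osteonectin, stood at 1563 CPM (1533 to 1593) against 153 CPM (149 to 157), a ratio of 10.2. Sparc was found in 83.2% of thinned mesenchymal-like and 17.4% of thinned epithelial-like cells. All 3 genes were therefore read in both classes, while the counting intervals of their summed levels did not overlap.

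The 2 listed type IV collagen genes behaved as mesenchymal-higher genes although the protein belongs to the basement membrane. Other type IV chains, off the list, did not. Col4a5 was epithelial higher, at 78.6 CPM in mesenchymal-like against 228 CPM in epithelial-like cells. Col4a3, at 151 against 230 CPM, and Col4a4, at 183 against 204 CPM, were shared. Col4a1 stood at 381 CPM (366 to 396) against 26.3 CPM (24.7 to 28.0), a ratio of 14.5 (13.4 to 15.6). Col4a2 stood at 304 CPM (291 to 318) against 51.2 CPM (49.0 to 53.5), a ratio of 5.94 (5.58 to 6.32). The intervals of the 2 ratios did not overlap, though the genes start 21 bases apart on opposite strands of chromosome 8. Both overlap another annotated gene on the other strand, and the counting is not stated to use strand. Col12a1, a collagen that decorates fibril surfaces, stood at 269 against 28.8 CPM, a ratio of 9.32, and Col16a1, a related collagen, at 17.0 against 3.595 CPM, a ratio of 4.72. Fbln2, fibulin 2, an elastic fibre and basement membrane protein, stood at 601 CPM (583 to 620) against 37.7 CPM (35.8 to 39.7).

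The protease Mmp14 and the 3 listed TIMP genes were all read in both classes and stood higher in mesenchymal-like cells, by unequal ratios. Timp3, which binds to the matrix, stood at 935 CPM (913 to 959) against 59.6 CPM (57.2 to 62.2), a ratio of 15.7. Timp1 stood at 153 against 50.6 CPM, a ratio of 3.02, and Mmp14, a membrane-bound collagenase, at 542 against 243 CPM, a ratio of 2.23 (2.15 to 2.32). Timp2, which takes part in the activation of pro-MMP2 by MMP14, stood at 678 CPM (659 to 698) against 345 CPM (339 to 351), a ratio of 1.97 (1.90 to 2.03), and counts as shared by a narrow margin. Without the cells that had UMIs of Vim and of an epithelial gauge it was called mesenchymal higher. Mmp2 itself, the gelatinase that this pair acts on, had 1 UMI in mesenchymal-like and 23 in epithelial-like cells, so this substrate of the pair was hardly read in either class.

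Shared levels were seen for 6 genes, and 1 was epithelial higher. Col8a1, a short-chain collagen, stood at 634 CPM (615 to 653) in mesenchymal-like and 441 CPM (434 to 448) in epithelial-like cells, a ratio of 1.44 (1.39 to 1.49). Tnc, tenascin C, an adhesion-modulating glycoprotein of remodelled tissue, stood at 562 against 439 CPM, a ratio of 1.28 (1.24 to 1.33). Postn, periostin, stood at 61.4 CPM (55.6 to 67.6) against 54.2 CPM (51.8 to 56.6), and Fbln5, an elastic fibre assembly protein, at 18.7 CPM (15.6 to 22.3) against 16.8 CPM (15.5 to 18.1). For Postn and Fbln5 the intervals of the classes overlapped. Col18a1, a basement membrane collagen, stood at 73.5 CPM (67.2 to 80.2) against 88.2 CPM (85.2 to 91.2), a ratio of 0.833. Col7a1, the anchoring fibril collagen, stood at 29.95 CPM (26.0 to 34.4) against 63.9 CPM (61.4 to 66.5), 2.13-fold higher in epithelial-like cells. For all 7 the mesenchymal level was 46.8% to 197% of the epithelial level, above the 6.30% to 7.57% of Epcam, Krt5 and Cdh1. Epcam, Krt5 and Cdh1 also helped to name the clusters, so this comparison is not independent of the naming.

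Several genes that fibroblasts are known for were missing. Lum, the proteoglycan lumican, and Serpinh1, the collagen chaperone HSP47, had 0 UMIs in all 18116 barcodes. A count of 0 allows up to 0.443 CPM in mesenchymal-like and 0.079 CPM in epithelial-like cells, from 3 UMIs. Col1a2, the alpha2 chain that joins the Col1a1 product in type I collagen, had 6 UMIs in all kept cells, 4 of them mesenchymal-like, beside 1944 UMIs of Col1a1 there. Bgn, the proteoglycan biglycan, had 10 and 8 UMIs in the 2 classes, and Eln, elastin, had 2 and 2. Lum lies beside Dcn on chromosome 10 (97565128 to 97572703, and 97479609 to 97518143 for Dcn), and Dcn was read with 144 UMIs in mesenchymal-like cells.

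Upstream sequence of Col1a2 and Serpinh1 is shown because their partners in type I collagen assembly were read and they were not. For Col1a2 the stretch is chr6:4505370-4505492 on the plus strand, the 123 bases of the window outside its annotated exons, which end 125 bases before the RefSeq start. GENCODE starts the gene earlier, at 4504814, so this stretch lies inside the gene as annotated there. For Serpinh1 it is chr7:99353240-99353489 on the minus strand, 250 bases.
Col1a2: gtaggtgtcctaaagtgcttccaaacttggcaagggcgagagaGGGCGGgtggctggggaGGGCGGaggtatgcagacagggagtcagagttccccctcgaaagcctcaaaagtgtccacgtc
Serpinh1: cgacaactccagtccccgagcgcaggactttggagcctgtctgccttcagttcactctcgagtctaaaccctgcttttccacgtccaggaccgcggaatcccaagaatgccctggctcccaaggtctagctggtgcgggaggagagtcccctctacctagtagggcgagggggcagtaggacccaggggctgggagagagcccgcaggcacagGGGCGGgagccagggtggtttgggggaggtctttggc
Capitals mark the GC box, at 205 and 188 bases before the start for Col1a2 and at 37 bases for Serpinh1. A CCAAT box match of Col1a2, at 109 bases, lies in the part of its window not printed. The Serpinh1 window had 63.6% G or C and 11 CpG pairs, between those of Col3a1 and Col5a1 above. In GENCODE, Serpinh1 and Lum overlap no other gene, and Col1a2 overlaps Gm43921 on the same strand. Whether the transcripts were lacking in the cells or were not counted was not tested.

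The remaining genes below 10 CPM were not evenly low. Mmp3, a stromelysin, stood at 9.30 against 0.370 CPM (63 and 14 UMIs), a ratio of 25.1 (13.9 to 48.5), and was kept out of the mesenchymal-only class by the 10 CPM minimum alone. Thbs2, thrombospondin 2, stood at 8.41 against 0.687 CPM, a ratio of 12.2 (7.57 to 20.3), and Loxl1, which acts on elastic fibres, at 8.26 against 2.25 CPM, a ratio of 3.68 (2.58 to 5.21). All 3 were higher in mesenchymal-like cells by their intervals, at levels too low for the call rule.

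Per cell, the mesenchymal-like cells carried several times the matrix transcripts. The 43 genes together took 1.796% (1.79% to 1.81%) of UMIs there and 0.370% (0.368% to 0.372%) in epithelial-like cells, a ratio of 4.85. At 1500 UMIs per cell, the median was 27 matrix UMIs (5th to 95th percentile 10 to 48) in 1926 mesenchymal-like cells and 5 (1 to 13) in 11231 epithelial-like cells, and 89.7% of the former lay above the 95th percentile of the latter. The median number of the 43 genes with a UMI was 9 against 3. The matrix UMIs came from few genes: Thbs1 gave 30.8%, Fn1 23.9% and Sparc 8.70% in mesenchymal-like cells, and Thbs1 32.9%, Col8a1 11.9% and Tnc 11.9% in epithelial-like cells. These are shares of UMIs and not levels per length. Thbs1 led in both classes, and the genes after it differed.

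**Figure D2:**
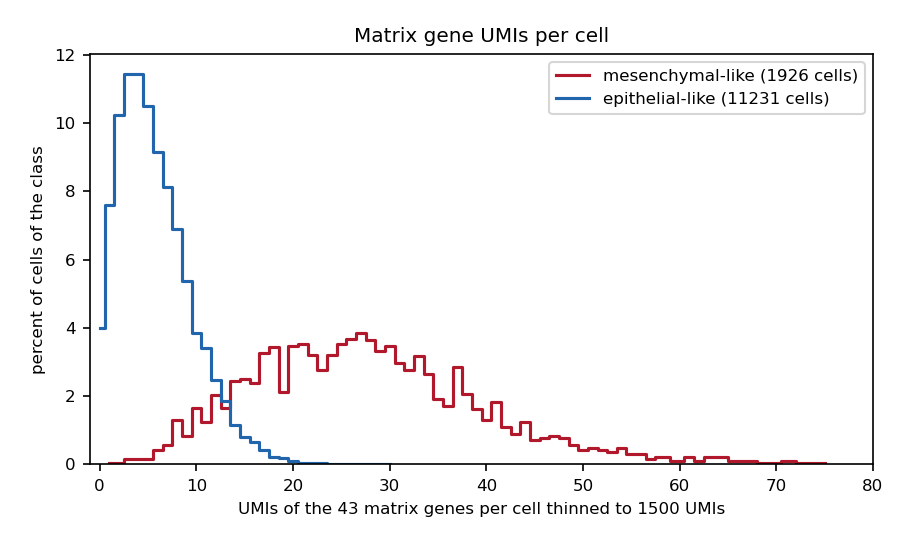
Distribution over cells of the summed UMIs of the 43 matrix genes, after each cell was thinned to 1500 UMIs, as a percent of the cells of each class. The 1926 mesenchymal-like cells centre on a median of 27 and the 11231 epithelial-like cells on a median of 5, with overlap at the low end of the former.

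Over all 10 clusters, 33 of the 41 genes with any UMI had their highest CPM in cluster 4. The same count over all genes is not given. The 33 include Col1a2, Bgn and Eln, with 4, 10 and 2 UMIs in that cluster. Col18a1 and Fbln5 were highest in cluster 2, an epithelial-like cluster led by Krt7 and Sorbs2, and Mmp2 in cluster 7, from 3 UMIs. Mmp3 was highest in cluster 9, with 14.1 CPM (5.18 to 30.8) from 6 UMIs in 114 cells. That interval covers the 9.30 CPM of cluster 4. Col7a1, Col8a1, Postn and Tnc were highest in the unnamed cluster 8, at 193, 1431, 248 and 1352 CPM. That cluster had the low depth and high mitochondrial share given above, and their part in these levels was not tested.

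**Figure D3:**
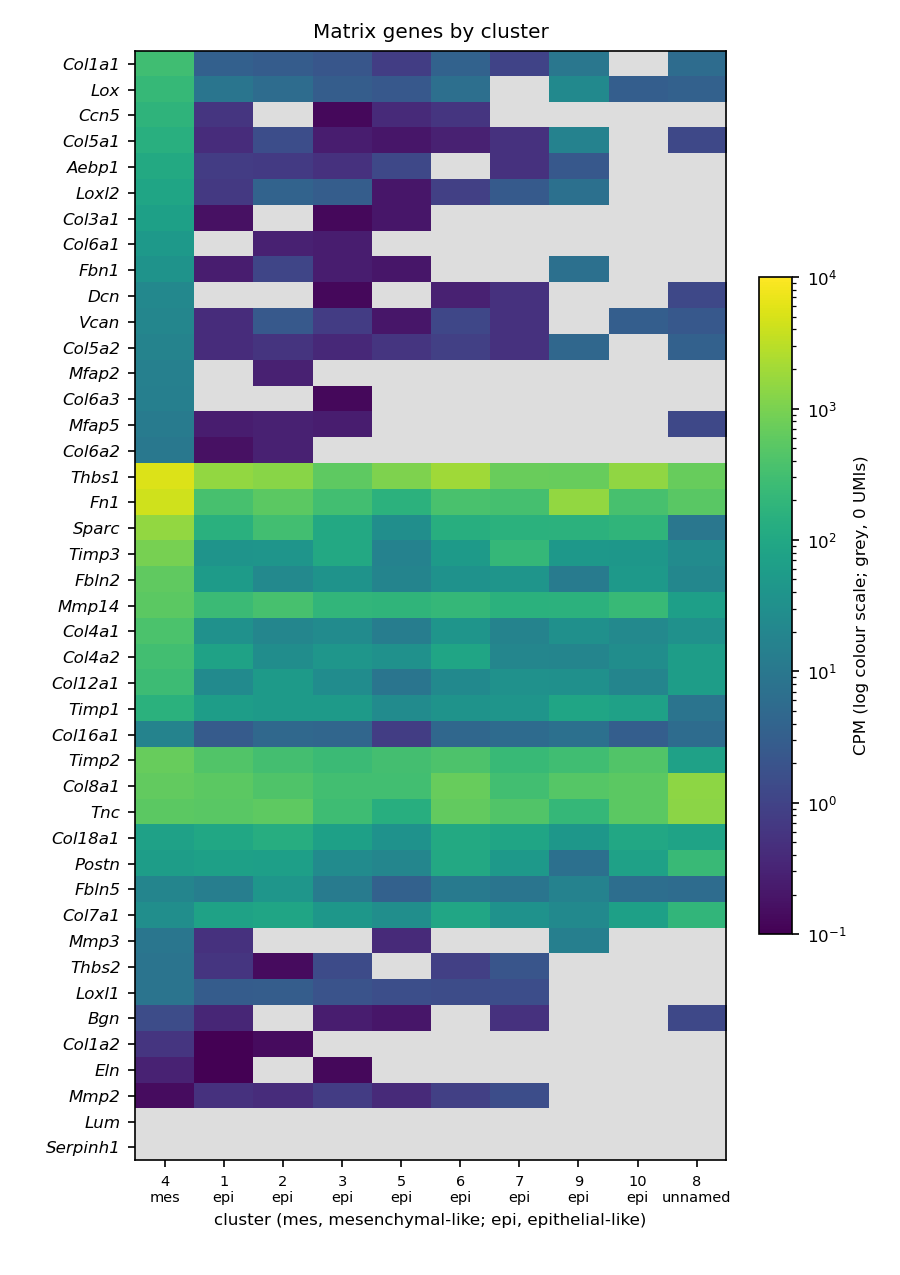
CPM of the 43 matrix genes (rows, ordered by class and mesenchymal level) in the 10 clusters (columns) on a log colour scale, grey where no UMI was counted. The top 16 rows are brightest in cluster 4, the rows from Thbs1 to Col7a1 are filled in all clusters, and the last rows are empty or nearly so.

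Epithelial-like cells were not uniform in the matrix genes they shared. Between the highest and the lowest of the 6 clusters of at least 500 cells, 16 of 27 listed genes with enough counts differed by the call rule, where 22.7% of 13590 genes did. The median spread was 4.04-fold for the 27 and 1.95-fold for all genes, with counts under 3 UMIs set to 3. The 4.04 is the value of Col5a1, from 11 UMIs against 2, which was not called. The median thus also holds genes near that floor. Of the 16, 7 were highest in cluster 6 (led by Fut9 and Cdh13), 6 in cluster 2, 2 in cluster 1 and 1 in cluster 7, and 13 were lowest in cluster 5, led by Ltf, Gabrp and Lcn2. The same counts over all called genes are not given, so this order is not shown to be particular to matrix genes. Sparc stood at 306 CPM (293 to 319) in cluster 2 and 29.6 CPM (25.004 to 34.7) in cluster 5, and Fbln5 at 41.6 against 3.597 CPM. Timp3 stood apart from this order, at 211 CPM (191 to 232) in cluster 7, led by Sncg, Fst and Krt14, and 16.2 CPM in cluster 5.

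The adhesive glycoproteins varied in the same clusters. Tnc stood at 642 CPM (615 to 669) in cluster 6 and 137 CPM (127 to 148) in cluster 5, and Postn at 105 against 19.6 CPM. Fn1 stood at 540 CPM in cluster 2 and 162 CPM in cluster 5. Thbs1 reached 1900 CPM (1854 to 1947) in cluster 6 and was lowest, at 566 CPM (549 to 583), in the cycling cluster 3. Timp2, at 430 to 230 CPM, was not called. In the small cluster 9, led by Ly6c1 and Pate14, Fn1 stood at 1531 CPM, above the other 7 epithelial-like clusters. Col5a1 was also highest there among these clusters, at 16.5 CPM (6.63 to 34.0), but from 7 UMIs. That interval overlapped the one of cluster 10, which had 0 UMIs and an upper end of 11.7 CPM.

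Within the mesenchymal-like cells, subclustering without the matrix genes gave 6 subclusters. The largest, subcluster 1 with 887 cells, was led by Fut9, Nav3 and Cp, and subcluster 2 with 718 cells by contractile and matricellular genes (F3, Acta2, Myl9, Ccn2), with Acta2 at 8613 against 2747 CPM. The matrix share was 1.94% of UMIs in the former and 1.92% in the latter. Only Col6a1, at 77.3 CPM (67.3 to 88.4) against 32.8 CPM (26.1 to 40.8), and Mmp3, at 14.7 against 4.87 CPM, were called between them, 2 of 43, where 3.9% of 10429 genes were called. Col1a1 stood at 315 CPM (295 to 337) and 308 CPM (287 to 331), with overlapping intervals, beside the difference in Acta2.

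Smaller subclusters departed further. Subcluster 3, with 215 cells, was led by the epithelial genes Ly6d, Gpx2, Wfdc18 and Krt5, had Epcam at 494 and Vim at 549 CPM and a median of 4414 UMIs, and 96.3% of its cells had a UMI of Epcam, Krt5 or Cdh1; its matrix share was 1.29%. Whether its cells were mixed droplets was not tested. Without it, Timp2 and Mmp3 changed class and the other 41 genes did not. In subcluster 5, 46 cells led by Amtn and Defb3, Thbs2 stood at 147 CPM (96.9 to 214) and Fbln5 at 191 CPM (133 to 265), both above the other 5 subclusters. Loxl1 was also highest there, at 59.9 CPM (29.9 to 107) from 11 UMIs, but its interval overlapped those of subclusters 4 and 6. Col1a1 was lowest in subcluster 5, at 87.1 CPM (49.8 to 142), from 16 UMIs. The low level of Thbs2 and the shared level of Fbln5 over the whole class thus covered a small set of cells with more of them.

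Dividing mesenchymal-like cells, subcluster 4 with 69 cells and Top2a at 653 CPM, had a matrix share of 1.08%. Against subclusters 1 and 2 together, 6 of the 43 genes were called, where 5.94% of 10617 genes were. Of these, 5 were lower in dividing cells: Fn1 at 2303 CPM (2134 to 2481) against 4714 CPM (4656 to 4773), Thbs1 at 2463 against 5943 CPM, Col3a1 at 13.4 against 83.1 CPM, Col6a1 at 20.1 against 56.4 CPM and Aebp1 at 50.2 against 119 CPM. Dcn was higher, at 56.9 CPM (33.1 to 91.1) against 21.5 CPM (17.8 to 25.9), from 17 UMIs in the dividing cells. Col1a1, at 241 CPM there, was not called.

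**Figure D4:**
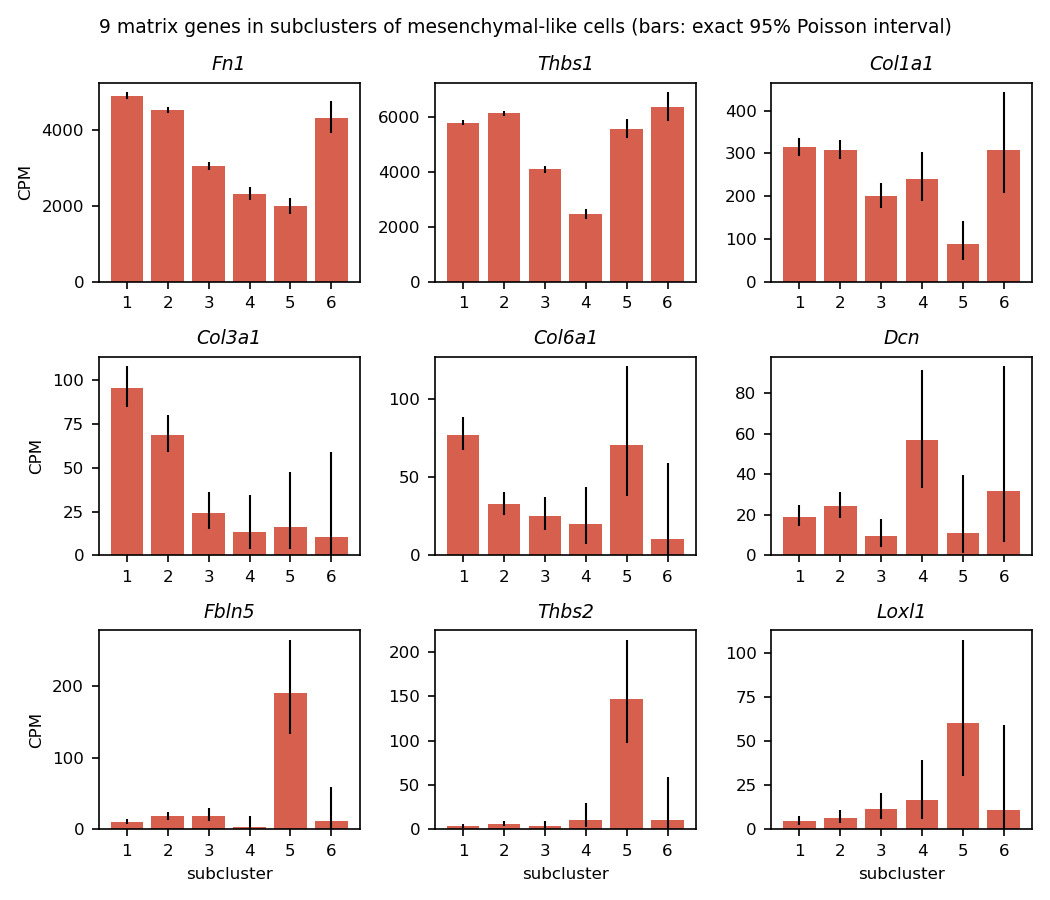
CPM of 9 matrix genes in the 6 subclusters of mesenchymal-like cells, as bars from 0 with exact 95% Poisson intervals. Fn1 is lowest in subcluster 5 and Thbs1 in subcluster 4, and Dcn is highest in subcluster 4 with a wide interval. Fbln5 and Thbs2 stand out in subcluster 5. Loxl1 is highest there too, with an interval that overlaps those of subclusters 4 and 6.

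Within single cells, 4 mesenchymal-only collagens were each read sparsely after thinning. Col1a1 was found in 29.5% of mesenchymal-like cells, Col5a1 in 20.04%, and Col3a1 and Col6a1 in 7.63% each. Of thinned mesenchymal-like cells, 50.9% had no UMI of Col1a1, Col3a1, Col5a1 or Col6a1, 35.8% had 1 of the 4 genes, 11.1% had 2, 1.97% had 3 and 0.208% had all 4. In sparse counts such shares follow the depth as well as the cells. Whether the 4 genes were read together more or less often than their single shares imply was not tested. The variance-to-mean ratio, which is near 1 for counting noise alone, was 3.14 for Fn1, 3.08 for Thbs1, 2.87 for Postn and 2.07 for Col3a1, and the median over the 2607 genes that averaged 0.1 or more UMIs per cell was 1.05. Postn and Col3a1 were thus uneven between cells at a low mean (0.103 and 0.113 UMIs), whereas Col5a1 had 1.09 and Timp2 1.07.

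Other genes of the matrix pathways show what stood around the 43. Of 14157 genes with at least 20 UMIs, 6.72% were mesenchymal, 6.35% epithelial, 51.1% shared and 35.8% low. The lists below also hold genes under that minimum. Of 24 fibroblast identity genes, 9 were mesenchymal, 1 epithelial and 14 low. Pdgfra, Pdgfrb, Thy1, Twist1, Twist2 and Prrx1 of this list were also among the markers that named the clusters, so these counts are not independent of the naming. Fgf7, a growth factor that fibroblasts make for epithelium, stood at 58.9 against 0.317 CPM, Cxcl12, a stromal chemokine, at 175 against 1.88 CPM, Cd248, a stromal surface antigen, at 14.02 against 0.159 CPM, and Foxf1, a transcription factor of gut mesenchyme, at 37.2 against 0.661 CPM. The other 5 mesenchymal ones (Pdgfra, Twist2, S100a4, Has2 and Ptgs2) had ratios of 2.15 to 13.5. Among the 14 low genes, Thy1 and Tcf21 had 0 UMIs in both classes, Prrx1 stood at 0.738 CPM and Pdgfrb at 2.80 CPM in mesenchymal-like cells. Ly6a, a surface antigen of many fibroblasts, was higher in epithelial-like cells, at 2544 against 648 CPM.

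Collagens off the list split in the same way. Of 10, 3 were mesenchymal and 7 low: Col5a3 stood at 42.1 against 0.661 CPM, Col11a1 at 32.3 against 0.740 CPM and Col27a1 at 96.4 against 11.4 CPM, all fibrillar collagens, while Col14a1, a fibril-associated collagen of connective tissue, had 0 UMIs in mesenchymal-like cells. Of 24 other matrix proteins, 4 were mesenchymal, 2 epithelial and 18 low. Ogn, the proteoglycan osteoglycin, stood at 98.4 against 1.11 CPM and Spp1, osteopontin, at 4603 against 217 CPM. Of 22 basement membrane genes, 4 were mesenchymal, 4 shared, 5 epithelial and 9 low. The epithelial ones included Col17a1, a hemidesmosome collagen (381 against 29.95 CPM in mesenchymal-like cells), and the mesenchymal ones included Hspg2, perlecan, at 120 against 28.5 CPM. Nid1, Nid2 and Lama1 had 0 UMIs in both classes.

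The machinery of collagen synthesis was mesenchymal where it was called. Of 25 genes found, 10 were mesenchymal, 6 shared, 0 epithelial and 9 low. Adamts2, which removes the N-terminal propeptide of procollagen, stood at 40.6 against 0.132 CPM, a ratio of 307. Plod2, a lysyl hydroxylase, stood at 275 against 35.3 CPM, and Pcolce2, an enhancer of procollagen C-proteinase, at 95.02 against 7.53 CPM. Fkbp10, another collagen chaperone, had 1 and 5 UMIs, and was scarce beside Serpinh1 in cells that read Col1a1 and Plod2.

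Of 29 matrix proteases and inhibitors, 8 were mesenchymal, 5 shared, 2 epithelial and 14 low. Adamts12 stood at 88.8 against 0.317 CPM, Plat, tissue plasminogen activator, at 61.4 against 4.31 CPM, and Mmp15, a membrane-bound metalloproteinase, was epithelial at 39.9 against 2.07 CPM. Of 25 matrix receptors, 5 were mesenchymal, 9 shared, 5 epithelial and 6 low. Itgb3, which pairs in the vitronectin receptor, stood at 77.6 against 2.17 CPM and Itga5, of the fibronectin receptor, at 64.9 against 5.13 CPM. Itgb4 and Itga6, which form the hemidesmosome integrin, were higher in epithelial-like cells, at 111 and 211 CPM. Of 21 genes of TGF-beta signalling and its targets, 10 were mesenchymal, 8 shared, 2 epithelial and 1 low. Ccn2, a TGF-beta and YAP target, stood at 1150 against 127 CPM and Tgfbr3, the co-receptor betaglycan, at 26.9 against 0.211 CPM.

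Markers of other cell types were low in both classes, with exceptions. The summed level of 7 endothelial markers was 0.738 CPM in mesenchymal-like and 1.74 CPM in epithelial-like cells, with Cdh5, Emcn and Cldn5 at 0. The 8 immune markers summed to 13.9 and 7.43 CPM, mostly from Cd68, with Adgre1 and Tyrobp at 0. The 5 pericyte markers summed to 2.21 and 9.62 CPM and 5 Schwann cell markers to 2.66 and 2.35 CPM, with Kcnj8, Sox10 and Foxd3 at 0. Of 6 smooth muscle markers, which summed to 140 and 29.98 CPM, Actg2 stood at 85.1 CPM and Cnn1 at 24.5 CPM in mesenchymal-like cells, while Myh11 was at 0.885 and Des at 0.148 CPM. Of 7 cartilage and bone markers, which summed to 284 and 467 CPM, Runx2 (176 against 82.0 CPM) and Sox9 (108 against 384 CPM) gave nearly all.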

How the data were processed

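The authors deposited raw counts, the whole number of UMIs for each gene in each barcode, and the header of their matrix names CellRanger 8.0.1. The submitters' processing notes list the mm10 build, Cell Ranger and Scanpy 1.8.2 without roles. The lowest barcode total was 500 UMIs. The matrix held 47720034 UMIs, 45443280 of them in kept cells, over 32285 mouse genes and 2 added sequences, GFP and Scar; 34.5% of features had 0 UMIs. It was treated as 1 pooled sample.

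Kept cells were scaled to 10000 counts, log-transformed and clustered with scanpy 1.11.5 and igraph 0.11.9 (2000 variable genes, 30 components, 15 neighbours, resolution 0.6, and 0.4 within the mesenchymal-like cells). Scrublet called 1 of 14925 cells, 0.0067%, which is no working call, so doublets were not removed. A mesenchymal-like cluster had at least 50 cells, 3 mesenchymal markers raised 1.5-fold and fewer than 6 of 18 epithelial markers in 25% of its cells; epithelial-like clusters had 6 or more. This scoring was set after the clusters were seen.

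CPM are UMIs summed over a class per 1000000, with exact 95% Poisson intervals; shares have Clopper-Pearson intervals and ratios exact binomial ones (scipy 1.17.1). Genes with 0 to 2 UMIs were set to 3 UMIs for ratios. Thinning to 1500 UMIs left out 1644 cells, 35 of them mesenchymal-like and 1085 epithelial-like. Gene positions are from GENCODE M21. Names Leprel4 and Mmp1a were not matched. Of the 43 genes, 15 overlap a gene on the other strand and 8 overlap one on the same strand. All 43 genes are named. Of other lists, at most 4 genes per direction with the largest called ratio and at most 4 low ones are named. More genes are named from the fibroblast identity and basement membrane lists. The genes, the lists and their order were chosen with earlier results of these data known.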

Additional observations from a re-analysis of the deposited data

How the results depend on the processing

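The classes of 38 to 43 of the 43 genes were kept over 12 alternatives. For the 34 genes that were not low, no ratio turned direction under the 10 alternatives that recompute it; the 9 low genes were not followed in this way. Timp2 became mesenchymal higher, and Mmp3 mesenchymal only, under some of them. A minimum of 1000 genes and 2000 UMIs made Col6a2 low, a minimum of 5 CPM called Thbs2 and Loxl1, and Vcan fell below the limit of 20 with the mean over cells. A limit of 10 instead of 20 left 6 mesenchymal-higher genes instead of 11, moving Col4a1, Fn1, Sparc, Fbln2 and Timp3 to the only class.

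The matrix share moved by more than its counting interval but little in size. In mesenchymal-like cells, 1.796% became 1.86% with the stricter minimum, 1.91% without the 10% of cells with the highest Scrublet scores, 1.88% (1.876) without cells with UMIs of Vim and an epithelial gauge, 1.89% with classes from a gate on single cells, 1.90% without GFP, Scar and mitochondrial UMIs, 1.83% as a mean over cells and 1.88% (1.879) without subcluster 3, chosen after seeing the data. In epithelial-like cells, 0.370% became 0.373% with the stricter minimum and 0.393% without GFP, Scar and mitochondrial UMIs. Without thinning, 13 instead of 8 genes were found in at least 10% of epithelial-like cells, as each cell then had more UMIs. Finer subclustering gave 8 instead of 6 subclusters and again 2 called genes. The causes of these shifts were not tested further. No paired analysis was possible because each group has 1 sample and no result comes from a test. Depth limits genes below about 10 CPM, where 1 class holds few UMIs.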
